A study of Mus musculus with 6 samples.

Results

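Ribosomal protein genes encode the protein part of the cytosolic ribosome, with names in Rpl for the large and Rps for the small subunit, and they were followed here in RNA-seq of mouse CD4+ T cells. Members were genes whose symbol is Rpl or Rps followed by digits and at most 1 of the endings a, l or x, together with the stalk genes Rplp0, Rplp1 and Rplp2, leaving out the Rps6k kinases and symbols with ps. A mean of at least 100 normalized counts over all libraries was required, and the rule uses no difference between conditions, although the gene group itself was picked with earlier results of these data known. Of 56246 genes in the table, 81 symbols matched and 78 passed the minimum, 47 of the large and 31 of the small subunit. Rpl39l (mean 39.4), Rpl3l (mean 1.93) and Rpl10l (0 in all libraries) lay below it, while Rps4l (mean 124) and Rps10 (mean 170) were the members nearest above. Rps4l had a mean of 154 in cKO and of 93.5 in Control, so it reached the minimum only through its cKO mean. In the GENCODE M21 annotation 76 of the 78 are protein coding, and Rps4l and Rpl32l are processed pseudogenes (Rps4l a transcribed one), so that the name alone does not make these 2 a source of ribosomal protein. The pattern leaves out 7 further listed ribosomal protein genes or their paralogues, such as Rpsa, Rps3a1 and Fau, whose values are given beside those of the members.

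The cells came from spleens and peripheral lymph nodes of 3 cKO mice and of 3 Control mice, all male. The cKO mice (KO_7.8, KO_9.10, KO_11.12) are U5-52K f/f with a CD4-Cre transgene, which is active from the double positive stage of thymocytes onwards and therefore acts in the CD8 lineage too. Control joins 2 genotypes, U5-52K wt/f with CD4-Cre (CTRL_1.2 and CTRL_3.4) and U5-52K f/f without Cre (CTRL_5.6), so that all Control mice carry at least 1 floxed allele and Cre differs within the group. U5-52K, also named CD2BP2, takes part in the assembly of the U5 snRNP, a core particle of the spliceosome. Libraries were made from bulk RNA with a low-input kit, so fewer cells of a type and less RNA per cell cannot be told apart. The meaning of the digits in the library names is not stated, and the p-values reflect only how these libraries vary. Wherever 3 values of a condition are given in a row, they stand in the order KO_7.8, KO_9.10, KO_11.12 for cKO and CTRL_1.2, CTRL_3.4, CTRL_5.6 for Control.

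Ribosomal protein genes are transcribed at high rates in dividing and growing cells, and their mRNAs are regulated as a group. Most begin with a C followed by a run of pyrimidines, the 5' terminal oligopyrimidine (TOP) tract, which the protein LARP1 binds and through which mTORC1 signaling controls their translation. A surplus of free ribosomal proteins is known to reach p53: Rpl5 and Rpl11, assembled with 5S rRNA, bind the p53 inhibitor MDM2.

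The sequences below show the feature that the mRNAs share, read in the RefSeq promoter table of GRCm38.p6, in which 57 of the 78 members had an entry. A run of C and T that begins with C was searched on the transcribed strand only, within 15 bases on either side of the annotated start, and capitals mark the longest run in each window of 30 bases. Rps27, Rpl15, Rps6, Rpl38 and Rplp2 are shown for a run at or across the start, and Rps27l and Rpl11 as members without one. The windows lie at chr3:90213634-90213663 (Rps27, minus strand), chr14:18270972-18271001 (Rpl15, minus), chr4:86857353-86857382 (Rps6, minus), chr11:114668565-114668594 (Rpl38, plus), chr7:141447636-141447665 (Rplp2, plus), chr9:66946071-66946100 (Rps27l, plus) and chr4:136053379-136053408 (Rpl11, minus).
Rps27: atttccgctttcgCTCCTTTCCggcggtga
Rpl15: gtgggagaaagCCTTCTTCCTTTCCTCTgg
Rps6: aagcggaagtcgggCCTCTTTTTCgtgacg
Rpl38: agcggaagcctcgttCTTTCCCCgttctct
Rplp2: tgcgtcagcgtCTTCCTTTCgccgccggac
Rps27l: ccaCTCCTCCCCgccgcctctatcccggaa
Rpl11: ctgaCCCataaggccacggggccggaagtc
The last base before the annotated start is base 15 of each window. A run of at least 8 bases was present for 45.6% of the 57 matched members, against 10.8% of the 27025 genes of the whole table, 11.99% of the tested genes outside the members and 11.6% of mitochondrial ribosomal protein genes. The first 5 bases from the annotated start were all C or T with C as the first, whether or not the run reached upstream, for 24.6% of the members and 3.01% of all genes in the table. The longest run had a median of 7 bases over the members and of 4 bases over all genes. A match is a description of these letters, since annotated starts can lie some bases from the starts in use.

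Per kb of annotated exon, members spanned a wide range of levels, given here as mean normalized counts per kb over all 6 libraries. Rps27 (92229 per kb), Rpl32 (84577) and the stalk gene Rplp1 (78130) were highest, and the median member had 11255 per kb. Rps10 (73.6 per kb), Rps4l (131) and Rpl24 (318) were lowest, followed by Rpl13a (637). The 10 members with the most reads, led by Rpl4 with 5.27% and Rplp0 with 5.02%, held 41.3% of all reads in the members.

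Some of these low levels stand beside a limit of the counting. In the splicing tables, which count reads over exons and junctions of 1 event, the event with the most reads held on average 23639 reads per library for Rpl13a, 4522 for Rpl24 and 2212 for Rps10, while the gene table gives 1347, 323 and 171 reads per library. The event thus held 17.5, 14 and 12.9 times the reads of its gene. Only 5 of the 64 members with an event exceeded 1, and the median was 0.489. Exons of all 3 genes are overlapped in part by another annotated gene, Gm45713 for Rpl13a, Gm28037 for Rpl24 and Gm15420 and RPS10-NUDT3 for Rps10. The gene table thus holds fewer reads for these 3 genes than 1 of their events, and the part of the overlap in this was not tested.

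Sequence shared with other genes is a further limit. In 30 of the 76 members with a transcript compared, at least 50% of the 100-base windows of the transcript also occur in transcripts of other genes, up to 98.4% in Rps27. Genes that overlap a member were not left out of this comparison, and Rpl13a, Rpl24 and Rps10 are among the 30. These 30 members had a median level of 10846 per kb, against 12156 per kb in the other 46, and the libraries differed in both sets in the same order.

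The members moved together from library to library, and the libraries that stood apart came from both conditions. On the scale of log2 distance from the Control mean of the same gene, the median of the 78 members was 0.22, -0.42 and -0.26 in the cKO libraries, against -0.20, -0.21 and 0.40 in the Control libraries. Over all 11001 genes tested the same medians lay between -0.02 and 0.04. KO_7.8 and CTRL_5.6 were thus high and the other 4 libraries low, and the ranges of the conditions overlapped. The same 2 libraries stood apart over all genes. Set against KO_9.10 and KO_11.12, KO_7.8 gave a chi-square per gene of 194.5 and 182.7, against 25.87 between those, and CTRL_5.6 gave 81.71 and 107.6 beside CTRL_1.2 and CTRL_3.4, against 16.39 between those. They also had the fewest reads in genes of their condition (69981159 in KO_7.8 and 56995121 in CTRL_5.6, with 62045576 to 82286366 in the others), and the part of depth or of these libraries as a whole in the members' pattern was not tested.

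**Figure D1:**
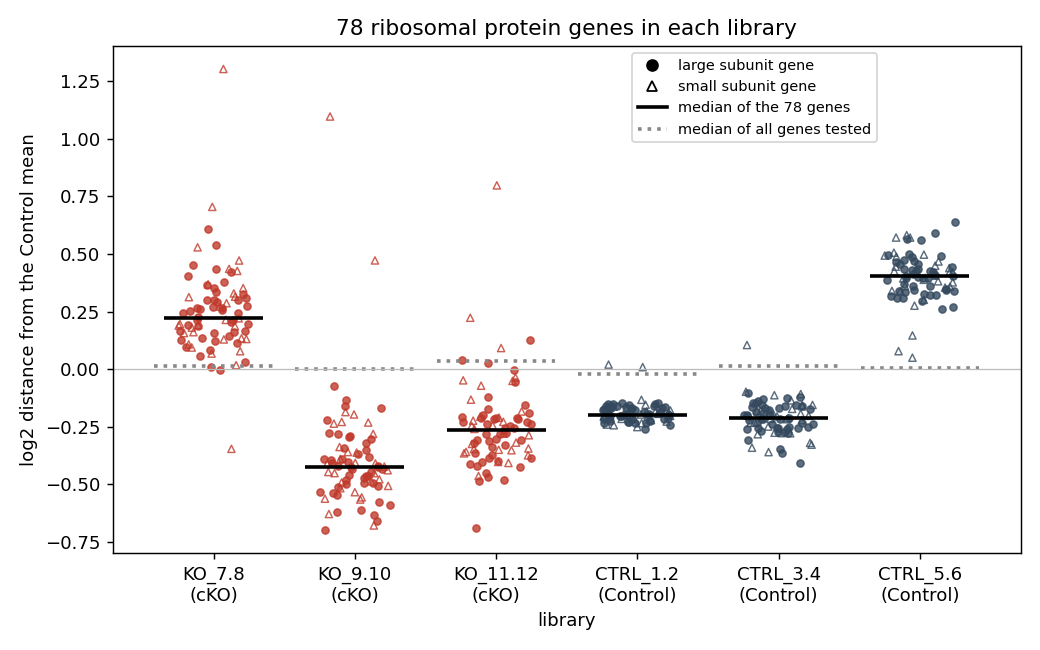
Each point is 1 of 78 ribosomal protein genes in 1 library, as log2 distance from the mean of the 3 Control libraries (filled circles: large subunit, open triangles: small subunit; black bars: median of the 78; dotted grey bars: median of 11001 genes). The black bars lie at 0.22, -0.42 and -0.26 in the cKO libraries and at -0.20, -0.21 and 0.40 in the Control libraries, while the grey bars stay near 0.

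The order was the same in nearly every gene. CTRL_5.6 was the highest Control library in 77 of 78 members (98.7%, against 43.4% of all genes tested), KO_7.8 the highest cKO library in 76 (97.4%, against 44.7%) and KO_9.10 the lowest cKO library in 75 (96.2%, against 39.2%). Only Rps4l, Rps12 and Rps10 departed from the first 2 of these. CTRL_5.6 was the highest of all 6 libraries in 66 members, and KO_9.10 the lowest in 69. Large and small subunit genes gave nearly the same medians in each library, such as 0.24 and 0.20 in KO_7.8 and 0.40 and 0.41 in CTRL_5.6.

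The summed reads show the same picture without a fit. Members held 4.04%, 2.77% and 2.96% of the reads in genes in the cKO libraries, against 3.30%, 3.10% and 4.65% in the Control libraries. With 2048562 reads or more in the members of each library, the 95% Wilson intervals are narrow, for example 2.767% to 2.774% in KO_9.10 and 4.642% to 4.653% in CTRL_5.6, and they cover counting error only. The mean was 3.26% ± 0.68 in cKO and 3.68% ± 0.84 in Control (SD, n = 3 each), a difference of -0.43 percentage points (exact permutation test over libraries, two-sided, p = 0.5; with 3 libraries in each condition it cannot go below 0.1). Without CTRL_5.6 the difference was 0.06 percentage points and without KO_7.8 it was -0.82, so that single libraries set its size and its sign.

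**Figure D2:**
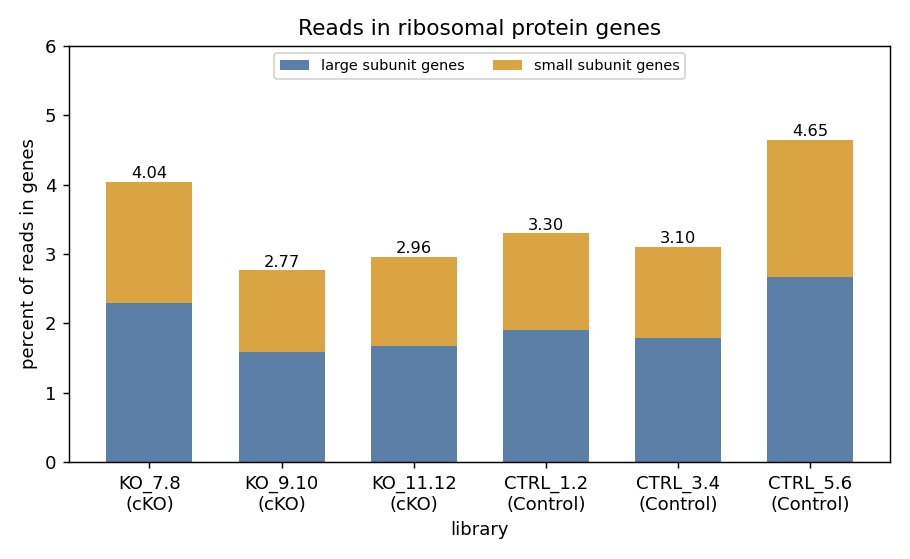
Bars show the percent of all reads in genes that fell in large subunit (blue) and small subunit (yellow) members in each library, with their sum above. KO_7.8 (4.04%) and CTRL_5.6 (4.65%) stand above the other 4 libraries, which lie between 2.77% and 3.30%.

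The balance of the subunits is given as a description with no test, because it was chosen after its values were seen. Large subunit members had 1.32, 1.34 and 1.31 times the reads of small subunit members in the cKO libraries, against 1.37, 1.37 and 1.35 in the Control libraries. All cKO libraries lay below all Control libraries (mean 1.32 ± 0.016 in cKO and 1.36 ± 0.012 in Control, SD, n = 3 each).

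Markers of other cells are given here for the same libraries, and only some of them shared the members' order. The 3 tested erythroid genes, all of hemoglobin, stood at a median log2 distance of 2.23 (KO_7.8) and 2.67 (CTRL_5.6), while the other 4 libraries gave -2.23 to -0.44. Their list summed to 329 to 3076 normalized counts in cKO and to 171 to 4063 in Control. Myeloid markers (9 of 10 tested, summed level 22570 to 67391 in cKO and 23177 to 33124 in Control) stood at 2.65 (KO_7.8) and 0.59 (CTRL_5.6), with -0.38 to 0.59 in the others. Cell cycle genes (10 of 10 tested, summed level 29268 to 47546 in cKO and 27429 to 29574 in Control) stood at 1.57, -0.09 and 0.12 in cKO, against 0.20, -0.08 and -0.15 in Control, so that CTRL_5.6 was the lowest Control library. B cell markers (10 of 10 tested, summed level 5034 to 9492 in cKO and 11073 to 14763 in Control) stood at -0.57, -1.61 and -0.83 in cKO, against -0.18, -0.05 and 0.22 in Control, so that KO_7.8 lay below every Control library. No marker of these lists that the table holds was at 0 in all libraries. CD4+ T cell markers (8 of 8 tested, summed level 472875 to 509632 in cKO and 495073 to 544934 in Control) had medians of -0.16 to 0.08. Memory or effector T cell markers (9 of 10 tested) stood at 0.61, 0.73 and 0.74 in cKO, against 0.08, 0.12 and -0.28 in Control. Naive T cell markers (10 of 10 tested) stood at -0.25, -0.37 and -0.15 in cKO, against -0.19, -0.05 and 0.20 in Control. CD8+ T cell markers (5 of 6 tested) stood at 0.75, 0.18 and 0.14 in cKO, against -0.03, 0.33 and -0.37 in Control. NK cell markers (4 of 5 tested) stood at 0.54, 1.23 and 0.57 in cKO, against 0.03, -0.06 and 0.03 in Control. Plasma cell markers (4 of 5 tested) stood at 0.17, 0.17 and 0.03 in cKO, against 0.03, -0.06 and -0.08 in Control. The part of any of these in the members' pattern was not tested, and in CTRL_5.6 genotype, Cre and library cannot be told apart.

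Other genes with short coding sequences were also highest in KO_7.8 and CTRL_5.6, but lay closer to 0 than the members in the other 4 libraries. Members have a median coding length of 455 bases, against 1383 bases over all genes tested. In the 1134 other genes with more than 300 and up to 600 coding bases, the median log2 distance was 0.25, -0.03 and 0.05 in the cKO libraries, against -0.09, -0.04 and 0.13 in the Control libraries. The 45 members of this length stood at 0.20, -0.41 and -0.27 in cKO, against -0.19, -0.20 and 0.39 in Control. In KO_7.8 the other genes thus lay slightly above the members, and in CTRL_5.6 below them. The 182 other genes of up to 300 coding bases stood at 0.39 in KO_7.8 and at 0.17 in CTRL_5.6, against 0.27 and 0.49 in the 9 members of that length. Other genes of like counts did not show the pattern. The 1094 other genes within the middle range of the members' levels (10637 to 40123 normalized counts) had medians between -0.06 and 0.07 in all 6 libraries.

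Genes that share the ribosome or the TOP tract showed the pattern, and those that build the ribosome showed less of it. The 7 ribosomal protein genes outside the rule had medians of 0.21, -0.41 and -0.29 in cKO, against -0.16, -0.28 and 0.46 in Control. The 17 translation factors with TOP tracts, such as Eef2, which moves the ribosome along the mRNA, had 0.29, -0.22 and -0.14 in cKO, against -0.16, -0.16 and 0.30 in Control. Ribosome biogenesis factors (55 genes) stayed between -0.06 and 0.08 in all libraries, and RNA polymerase I genes (15 tested) between -0.07 and 0.08. Mitochondrial ribosomal protein genes (77 tested) were highest in KO_7.8 (0.33) and CTRL_5.6 (0.18) as well, with -0.11 to 0.07 elsewhere. Within the members, the 26 with a run of at least 8 pyrimidines near the start and the 31 matched members without one had nearly equal medians in each library, such as 0.26 and 0.21 in KO_7.8 and 0.39 and 0.42 in CTRL_5.6.

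In the comparison of cKO with Control, no member passed the test. With limma on log2(normalized count + 1), adjusted by Benjamini-Hochberg over all genes, 0 of 78 members had an adjusted p under 0.05, against 0.973% of all 11001 genes tested (107 genes; 0.564% with an absolute log2 fold change above 1 as well). At an unadjusted p under 0.05 there was 1 member, Rps27l, against 16.7% of all genes. edgeR called 0 members as well and DESeq2 called 1, again Rps27l, where they called 1.02% and 8.42% of all genes. The median log2 fold change of the members was -0.16, against 0.01 over all genes tested, with 66 members below 0 and 12 above. This median was 0.03 without CTRL_5.6 and -0.34 without KO_7.8. The library medians of the members averaged -0.15 ± 0.34 in cKO and -0.0020 ± 0.35 in Control (SD, n = 3 each; exact permutation test over libraries, two-sided, p = 0.5), a difference smaller than the spread between libraries.

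Rps27l, a paralogue of the small subunit gene Rps27 and a known p53 target, was the member that stood furthest from the rest. Its normalized counts were 7069, 3974 and 4981 in cKO, against 2500, 2562 and 3672 in Control. Every cKO library lay above every Control library, with the same high library in each condition as for the other members. The log2 fold change was 0.86 (1.81-fold, standard error 0.24, unadjusted p = 0.00936, adjusted p = 0.16 with limma), which does not pass the threshold. The adjusted p was 0.0149 with DESeq2, which called 8.42% of all genes. It was 0.000410 with limma without CTRL_5.6 and KO_7.8, at a log2 fold change of 0.81. Leaving out these libraries was chosen after seeing the data, and 13.3% of all genes passed there. This choice also takes out the only Control library without Cre. None of the 100-base transcript windows of Rps27l occurs in another gene's transcripts. Over all genes tested, 12.6% had all cKO libraries above all Control libraries and 11.5% all below. Among the members these were 2 (Rps27l and Rps4l) and 1 (Rps10) of 78, fewer than among all genes. Of these, Rps4l is a member only through its cKO mean.

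The parent gene Rps27, for a protein of the small subunit, followed the other members. It had 115862, 65639 and 78305 normalized counts in cKO, against 85728, 80866 and 150770 in Control, and the conditions overlapped. Its reads cannot be fully assigned, since nearly all of its transcript windows are shared with 2 other genes.

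The pseudogene Rps4l had 152, 200 and 109 normalized counts in the cKO libraries, against 93.7, 83.6 and 103 in the Control libraries, again without overlap (log2 fold change 0.67, standard error 0.30, adjusted p = 0.32 with limma). Since Rps4l reached the minimum of 100 only through its cKO mean, its higher level in cKO is partly set by the choice of members. Its parent Rps4x, the X-linked copy of the small subunit gene, had 29330, 19725 and 20754 in cKO and 23615, 23573 and 34321 in Control. Rpl32l had 945, 443 and 433 in cKO and 595, 527 and 1089 in Control. It had the widest spread of all members (residual SD 0.60 on the log2 scale), followed by Rpl37a (0.50). Rpl32 itself ranged from 61462 to 95451 in cKO and from 76628 to 109570 in Control.

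**Figure D3:**
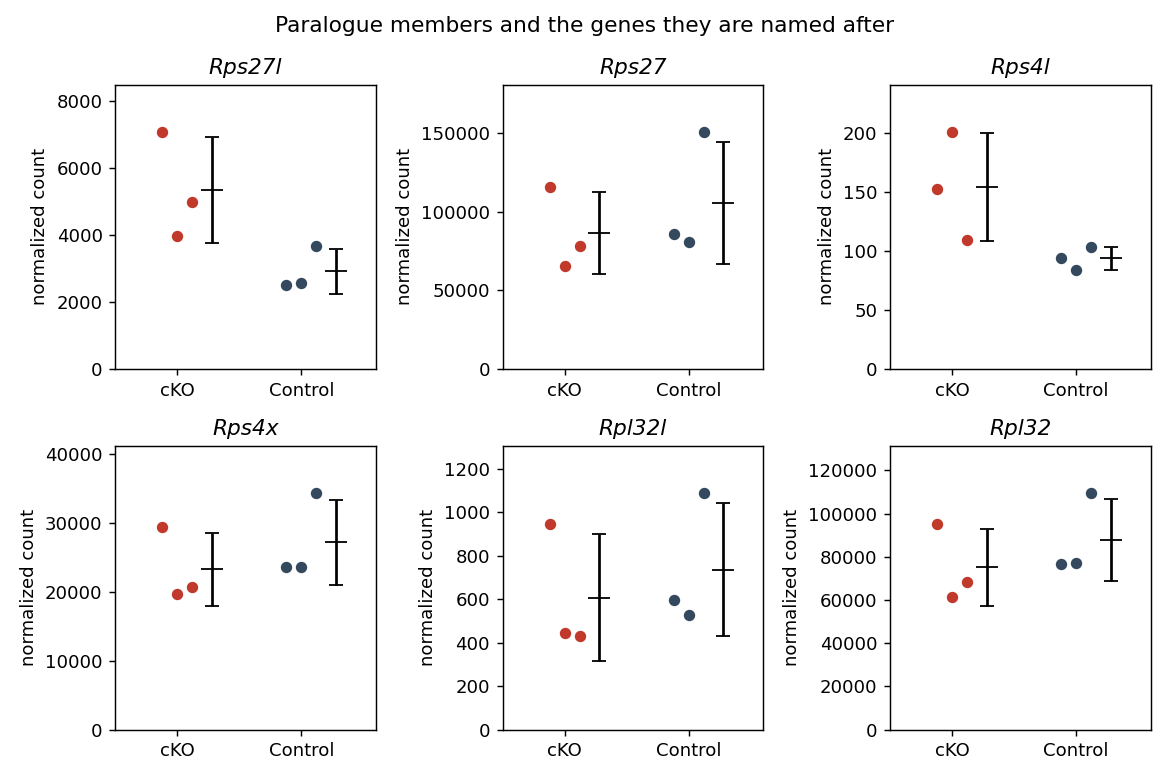
Normalized counts of 3 members named as paralogues and of their parent genes, with 1 point per library, cKO left and Control right, and mean ± SD (n = 3) beside each group. Rps27l and Rps4l have no overlap, with cKO higher, and in Rps27, Rps4x, Rpl32l and Rpl32 the points overlap. Rps4l is a member only through its cKO mean.

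The remaining members of smallest p, and Rpl37a among the 5 largest falls, had lower means in cKO. None of them passed the test. Rpl8, a large subunit protein, had 31906, 20988 and 24051 normalized counts in cKO, against 27616, 28120 and 42319 in Control (log2 fold change -0.34, standard error 0.22, adjusted p = 0.48 with limma). Rpl13 had the lowest log2 fold change of all members (-0.35), with 119007, 73929 and 82830 in cKO, against 99744, 98763 and 152565 in Control. The log2 fold changes of Rpl36a, Rpl37a, Rpl12, Rps2 and Rps10 lay at -0.34, -0.32, -0.31, -0.29 and -0.27. In each of these but Rps10, the cKO and Control libraries overlapped. Rps10 had 146, 163 and 153 in cKO and 189, 174 and 196 in Control, at the low counts described above. Without CTRL_5.6 and KO_7.8, a choice made after seeing the data, Rpl36a (log2 fold change -0.34, adjusted p = 0.0304) and Rpl12 (-0.32, adjusted p = 0.0366) passed the limma threshold together with Rps27l, where 13.3% of all genes did.

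Members with known roles outside protein synthesis followed the group. Rpl5, which with Rpl11 inhibits MDM2, had 57385, 40829 and 48663 normalized counts in cKO, against 50936, 52078 and 69934 in Control. Rpl11 had 22620, 14380 and 16039 in cKO, against 17351, 16817 and 26722 in Control. Both were lowest in KO_9.10 and highest in CTRL_5.6. Rps6, the target of the S6 kinases, had 83410, 52751 and 57735 in cKO and 61074, 59521 and 90780 in Control. Rpl22, which binds RNA and is known to be needed in the development of αβ T cells, had 5214, 3519 and 3951 in cKO and 4146, 4058 and 6032 in Control. These 2 genes had the same high and low libraries as Rpl5 and Rpl11, and in all 4 the conditions overlapped. The stalk genes, whose proteins recruit elongation factors to the ribosome, overlapped as well. Rplp0 had 155675, 92683 and 103976 in cKO and 107909, 110007 and 169538 in Control. Rplp1 ranged from 33563 to 47944 in cKO and from 32574 to 47143 in Control, and Rplp2 from 11885 to 17807 and from 14111 to 20271.

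Relative to one another most members differed little. Each member's log2 distance was set against the median of the 78 members in the same library, a scaling chosen after seeing the data. On this scale 73 of 78 members differed by less than 0.25 between the mean of cKO and the mean of Control, and 76 by less than 0.5, with Rps27l (1.01) and Rps4l (0.83, a member only through its cKO mean) as the exceptions. Rpl13a stood at 0.38, 0.35 and 0.39 in cKO, against -0.04, 0.06 and -0.01 in Control. As described above, its gene count holds fewer reads than 1 of its splicing events, so these values may describe only part of its reads. Rps25, Rpl28 and Rps19, the last mutated in Diamond-Blackfan anemia in humans, were higher in cKO by 0.26, 0.26 and 0.20, and Rpl13, Rpl8, Rpl36a, Rpl12 and Rps2 were lower by 0.20, 0.19, 0.18, 0.16 and 0.14. In all 9 of these the cKO and Control libraries did not overlap. On this scale 17 members had all cKO libraries above all Control libraries and 13 all below, 30 of 78 together, against 11.9% and 1.61% of all genes tested. In the rest the conditions overlapped. These counts describe the members only, because they also define the scale. limma was also run with all genes scaled to the members' median, taken here around each gene's mean over all libraries. It called 0 members and 0.1% of all genes, against 0.973% without scaling. This scaling carries the members' differences between libraries into every other gene and so into the variances, so the test cannot decide whether members differ relative to one another. Without scaling, Rpl13a, Rps25 and Rpl28 had log2 fold changes of 0.22, 0.11 and 0.11, with overlapping libraries and adjusted p of 0.71, 0.85 and 0.82 with limma.

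**Figure D4:**
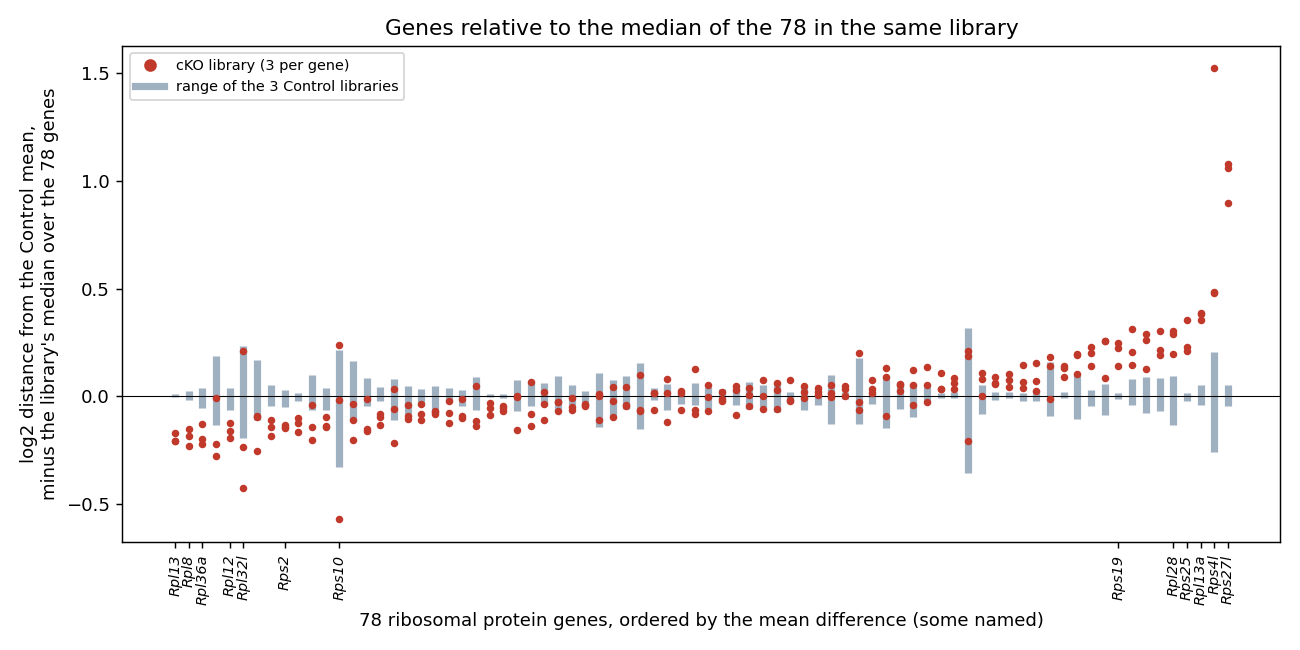
For each of 78 ribosomal protein genes, ordered by the mean difference of cKO minus Control, red points are the 3 cKO libraries and grey bars the range of the 3 Control libraries, as log2 distance from the Control mean minus the median of the 78 genes in the same library. Most points lie within 0.25 of 0, with Rpl13 at the low end and Rps4l and Rps27l at the high end.

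Outside the members, the genes of these lists that passed the test were Cd2bp2, genes of the p53 pathway, Rheb and some cell type markers. Cd2bp2, the targeted gene, had 884, 874 and 738 normalized counts in cKO, against 2624, 2602 and 2612 in Control (log2 fold change -1.65, adjusted p = 0.00137 with limma). These are counts over the whole gene, and the source of those that remain in cKO was not tested. Of 15 listed genes of p53 and the ribosomal stress checkpoint, 5 rose in cKO and 0 fell, while 0.673% of all genes tested rose. They were Phlda3, which restrains AKT (log2 fold change 3.46), Cdkn1a, which encodes the cell cycle inhibitor p21 (4.39), the proapoptotic Bax (1.17), Zmat3 (1.64) and Ccng1 (0.75), with adjusted p between 0.00031 and 0.0215 in limma. In the list of mTORC1, LARP1 and MYC (20 genes), Rheb, the activator of mTORC1, rose (log2 fold change 0.60, adjusted p = 0.0292). For Myc, which drives ribosome production, the value was -0.53 (adjusted p = 0.11). No gene passed in the lists of ribosome biogenesis, RNA polymerase I, TOP translation factors, mitochondrial ribosomal proteins or ribosomal protein genes outside the rule, with medians of 0.00, -0.06, -0.02, 0.10 and -0.14. The 8 tested pseudogenes named -ps had a median of -0.24 and none passed. Among the cell type lists, 4 of 9 tested memory or effector T cell markers and 1 of 4 tested plasma cell markers rose in cKO. None passed in the other cell type lists. All lists were drawn up with earlier results of these data known.

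Splicing of the members was measured in 204 events of 64 member genes, with inclusion given as the percent of the longer or exon-including form. The splicing tables give 3 values per condition without library names, so they cannot be matched with the libraries above. The absolute difference between the conditions had a median of 0.029 points, and it was below 1 point in 194 of the 204 events. Members' events were read deeply, with a median of 7167 reads per library. For the 115 skipped exons the median difference was 0.015 points, against 0.559 points over all skipped exons tested, at a median of 8751 and 283 reads per library. Members had the smaller median difference and the deeper reads in every event class, and the part of depth in this was not tested. With a quasi-binomial test, 0 events met an FDR under 0.01 together with a difference of at least 10 points, against 0.465% of all 55912 events tested. At an FDR under 0.01 alone there were 4, against 1.17% of all events, and 3 of them are described here, in Rps19, Rpl13a and Rpl17.

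An exon of Rps19 that ends its reading frame was included less in cKO. The exon (81 bases, chr7:24886107-24886187, GRCm38, plus strand) belongs to a transcript of Rps19 annotated as a target of nonsense-mediated decay, while the coding transcripts skip it. Its inclusion was 0.73%, 0.61% and 0.60% in cKO, against 0.94%, 0.84% and 1.04% in Control, a fall of 0.29 points (FDR 2.89e-05) over 37176 reads per library. The window around its stop codon (chr7:24886136-24886165, GRCm38), with the stop codon in capitals, follows 72 codons of the annotated reading frame.
Rps19: actcaacacagcctcTGAaaaccaaaaggt
Rps19 had 150804, 89500 and 106053 normalized counts in cKO and 94249, 93859 and 145402 in Control, which overlap.

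A further event was an alternative 5' splice site of Rpl13a, whose longer form has 158 further bases in the noncoding transcript Rpl13a-203. It made up 2.23%, 3.11% and 3.21% in cKO, against 2.28%, 2.06% and 1.71% in Control (0.83 points, FDR 0.00715), and the conditions overlapped. It lost the call when single values were left out. The event next in p, a skipped exon of Rpl35, was included at 99.9% in both conditions and did not pass (difference -0.08 points, FDR 0.0532).

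In Rpl17, a coding exon of 41 bases (chr18:75001350-75001390, plus strand, the third exon of Rpl17-201) was included at 90.4%, 90.7% and 90.5% in cKO, against 96.4%, 97.6% and 95.1% in Control. Inclusion fell by 5.83 points in cKO (FDR 1.32e-09), the largest difference among these 3 events, over 2853 reads per library. A length of 41 bases is not a multiple of 3, so that skipping shifts the reading frame. In Rpl17, 77.1% of the transcript windows also occur in 16 other genes, and the gene's counts overlapped between the conditions (13833 ± 4398 in cKO and 15896 ± 4810 in Control, SD, n = 3 each).

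**Figure D5:**
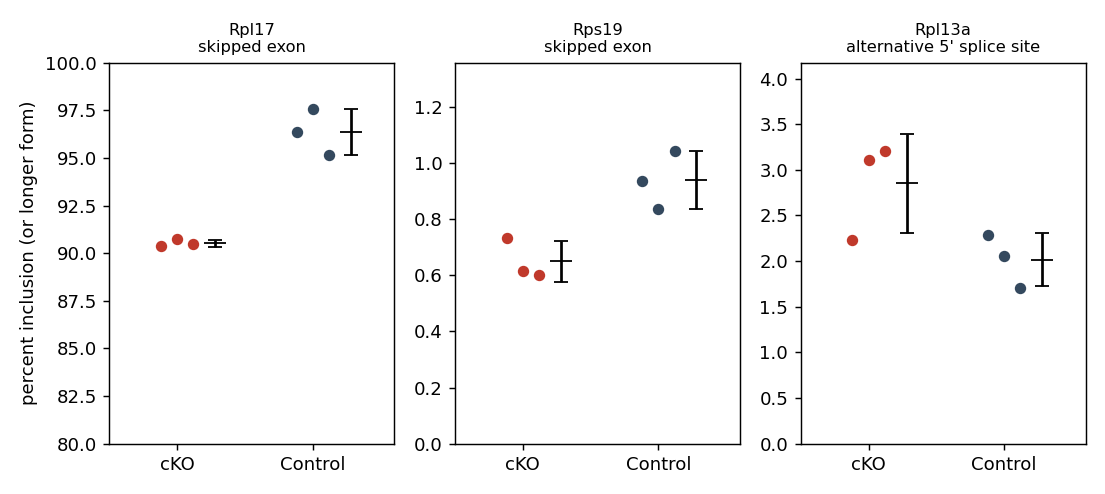
Percent of the longer or exon-including form for 3 events of members with an FDR under 0.01, 1 point per value, cKO left and Control right, with mean ± SD (n = 3); the axes start at 0 except for Rpl17, where the axis runs over 80 to 100. The groups are separate in Rpl17 and Rps19 and overlap in Rpl13a.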

How the data were processed

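The members and the gene lists were chosen with earlier results of these data known. Per the study's methods, adapters were removed with cutadapt by the authors, who then used STAR on GRCm38 and featureCounts for the count per gene; neither the annotation release nor the strand setting is stated. Expression was deposited as a signal, counts scaled by DESeq2 size factors, and 100% of the values became whole reads within 0.01 reads when multiplied by 1 factor per library. Reads in genes ranged from 69981159 to 82286366 in cKO and from 56995121 to 75606222 in Control. The deposited rMATS (splicing) tables hold inclusion and skipping counts of reads, 3 per condition; by the study's definition of the difference the first condition is Control. The authors' own fold changes and p-values per gene and event were not used.

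limma 3.58.1 in R 4.3.3, with a trend in the variance, was run on the 11001 genes that have a symbol and whose mean reached 100 in cKO or in Control, on the scale log2(normalized count + 1), which understates changes of low counts. edgeR 4.0.16 and DESeq2 1.42.0 were run on the recovered reads. For splicing, events reaching a mean of 20 reads in each condition entered a quasi-binomial model of both counts. Dispersions were moderated by limma with a floor of 1 and a prior from events with 5 or more reads of the rarer form, and the FDR was taken within each event class. The limma and splicing models were also run on simulated data, drawn separately for each gene or event. Shifts that many genes share within a library were not simulated. Exon lengths and overlaps came from GENCODE M21. Named members are those ending in l with their parents, the 8 of smallest p, the 5 largest rises and falls, members of known role, the extremes in level and spread, and those with an event among the 5 of smallest p, of which 1 is not reported here; of other lists at most 4 or 5 of smallest p are named. Members that lack a window comparison are the 2 pseudogenes. No 2 libraries of the same condition agreed within sampling noise (chi-square per gene at least 16.39), and libraries of different conditions were not compared in this way. Alternatives were other pseudocounts, filters, scalings and tools, other totals and gene sets for the share of reads, other read minimums and priors for splicing, and leaving out libraries or values. Python steps used numpy 2.4.6, pandas 2.3.3, scipy 1.17.1 and matplotlib 3.10.9.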

Additional observations from a re-analysis of the deposited data

How the results depend on the processing

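No paired analysis was possible because the conditions share no replicate numbers in the labels. The count of called members was 0 with edgeR and with limma under every planned setting, including each library left out (0 to 0 called), but 1 with DESeq2 on the recovered reads (Rps27l, log2 fold change 0.86) and 3 without both CTRL_5.6 and KO_7.8, which was chosen after seeing the data (Rps27l 0.81, Rpl12 -0.32 and Rpl36a -0.34). With 1 library left out, the median log2 fold change of the members ranged from -0.34 to 0.03 and the difference in the share of reads from -0.82 to 0.06 percentage points. Single genes ranged from 0.63 to 1.05 for Rps27l, from -0.047 to 0.25 for Rpl28 and from -0.052 to 0.30 for Rps25, the last 2 changing sign without KO_7.8. With values left out, 3 to 4 events of members had an FDR under 0.01. The Rpl13a event (0.66 to 1.14 points) lost its call without value 2 or value 3 of either condition and with a minimum of 50 reads (0.83 points), while those in Rpl17 (-6.44 to -5.22) and Rps19 (-0.34 to -0.24) kept it. The cause of these changes was not tested. With 3 libraries per condition, the members' log2 fold changes had a median standard error of 0.23, and the smallest detectable difference was not computed.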
